A study of Homo sapiens with 10 samples.

Results

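Core histone genes and linker histone genes of the replication-dependent type were followed in spheres grown from ReNcell VM, a human neural progenitor line that has been immortalised, after 6 days of differentiation with a phthalate ester or with vehicle. The genes were taken by symbol: H1 genes with a number, and the H2AC, H2BC, H3C and H4C series. This gave 70 of the 46427 genes in the count table. Of these, 66 lie in the histone gene clusters, 55 on chromosome 6 and 11 on chromosome 1, and 4 are solitary genes elsewhere. The solitary genes match the symbol rule but are not clustered replication-dependent genes, and of them H1-10 is described apart. Within the chromosome 6 cluster, H1-1 and the testis genes H1-6, H2AC1 and H2BC1 belong to the set by position and symbol.

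The 10 libraries form 5 groups of 2. Vehicle neurospheres received 0.1% DMSO, and the others received diethyl phthalate (DEP), DProP, DPP or a mixture (Mix), each labelled 100 µM. DProP commonly stands for di-n-propyl phthalate. Neither DPP nor the components of Mix are spelled out in the labels. All groups share the same line, a laminin-coated plate with differentiation medium, and pools of 6 neurospheres per library. Whether a group's libraries are separate cultures is not stated, so p-values here reflect only how far the libraries of a group lie apart, which may be technical. The study asks whether short-chain phthalates disturb steps of neural development, including progenitor proliferation.

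Histone proteins package DNA: pairs of H2A, H2B, H3 and H4 form the nucleosome core, and H1 sits on the linker DNA between cores. Cells make most of this protein during S phase from clustered, nearly intronless genes, whose messages end in a conserved stem-loop in place of a poly(A) tail. The stem-loop is bound by SLBP, and transcription is driven by NPAT and CASP8AP2 in nuclear bodies beside the gene clusters. Cells that leave the cycle switch the clustered genes down and rely on variants such as H3.3. The library kit captures exonic sequence by probes and does not select poly(A) tails. The histone genes that its probes cover were not stated in the labels.

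The stem-loops are shown because they mark the messages as the replication-dependent kind. A 16-base element of the form GGNNNTTNNNANNNCC whose 6-base arms pair was searched, on the sense strand, in the first 100 bases after the stop codon of GENCODE transcripts with at least 60 bases of 3′ UTR. It was found in 26 of 32 histone genes with such a UTR and in 10 of 18445 other genes (0.0542%). The forms are printed 5′ to 3′ with the paired arms in capitals and the loop in lower case. The first was carried by 15 genes, the second by 4, the third and the fourth by 3 each, and the last by 1.
stem-loop of H2AC18, H2AC19, H3C14, H3C15 and 11 others: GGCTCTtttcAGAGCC
stem-loop of H3C8, H2BC4, H2BC5 and H2BC7: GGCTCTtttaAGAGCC
stem-loop of H4C2, H4C5 and H4C8: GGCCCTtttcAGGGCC
stem-loop of H4C9, H4C14 and H4C15: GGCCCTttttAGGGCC
stem-loop of H3C6: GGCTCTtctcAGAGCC

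The promoters differ by family. RefSeq promoters (GRCh38.p14, 250 bases before to 50 after the start) were matched for 64 of the 70 genes, and motifs were counted on both strands. TATAAA stood in 65.6% of them and in 11.95% of all 27305 promoters, and CCAAT in 84.4% and 35.7%. The octamer ATTTGCAT, a site of POU factors known from H2B promoters, stood in 14 of 17 H2B and 11 of 15 H2A promoters, in 1 of 11 H3 promoters, in no H1 or H4 promoter, and in 1.80% of all promoters. Facing H2A and H2B starts lie 193 to 247 bases apart, so their windows overlap and 1 octamer can count for both families. The H3 match is H3C4, whose upstream stretch is that of H2AC7. The H2A, H2B and H3 counts are thus not separate. The H1 box AAACACAA stood in 5 of 9 H1 promoters and in 1.61% of all. A match is a description of the letters and not of binding, and these motifs can overlap one another. The 120 bases before the start are printed for 5 genes on which the results turn, on the strand of the gene, with these motifs on either strand in capitals.
H3C2, chr6:26032100-26032219, minus strand: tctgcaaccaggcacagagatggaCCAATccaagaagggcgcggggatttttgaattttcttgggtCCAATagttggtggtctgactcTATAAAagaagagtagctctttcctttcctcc
H2AC11, chr6:27132923-27133042, plus strand: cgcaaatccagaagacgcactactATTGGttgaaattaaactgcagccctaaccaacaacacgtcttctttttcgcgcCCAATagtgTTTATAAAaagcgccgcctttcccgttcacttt
H2BC11, chr6:27132796-27132915, minus strand: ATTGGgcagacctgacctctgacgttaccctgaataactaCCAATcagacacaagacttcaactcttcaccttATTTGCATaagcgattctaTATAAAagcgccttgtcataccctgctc
H1-5, chr6:27867589-27867708, minus strand: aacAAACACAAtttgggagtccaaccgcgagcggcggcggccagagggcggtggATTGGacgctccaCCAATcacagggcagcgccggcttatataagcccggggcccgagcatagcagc
H4C5, chr6:26204490-26204609, plus strand: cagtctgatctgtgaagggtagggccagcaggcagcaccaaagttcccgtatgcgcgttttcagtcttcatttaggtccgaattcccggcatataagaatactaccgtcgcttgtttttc

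Several facts of the libraries bear on the values below. Totals ran from 57222381 to 72973100 counts, and the histone genes took 0.107% to 0.168% of them. Of the 70 genes, 63 had enough counts for a test, among 19465 genes tested in all. The 7 others never exceeded 10 counts in a library (H1-1, H1-7, H1-8, H2AC1, H2BC1, H4C6 and H4C7), and H1-8, H2AC1 and H2BC1 had no count at all. Both vehicle libraries differed from the 8 treated ones: MALAT1, an abundant nuclear RNA, took 0.946% and 1.25% of vehicle counts and 0.342% to 0.394% of treated counts. Fold changes against vehicle also fell with GC content across genes (Spearman's rho from -0.32 to -0.26), while the histone genes are GC-rich (median 58.8% against 48.8%). Treatment and any batch shared by the vehicle libraries alone cannot be told apart. Near-identical copies (H2AC18 and H2AC19, H3C14 and H3C15, H4C14 and H4C15, H4C11 and H4C12) share most of their sequence, and their counts cannot be split with certainty. In all, 14 of the 70 genes share over 50% of their 50-base words with another gene.

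One library stood apart in these genes. DProP replicate 2 was the highest of the 10 libraries in 48 of 61 tested clustered genes, against 7.88% of all tested genes. It lay above DProP replicate 1 in 60 of 61, by over 2-fold in 26, whereas 1.90% of all tested genes differed by over 2-fold in that direction. In no other group did replicate 2 exceed replicate 1 by over 2-fold in any clustered gene. A smaller gap in the same direction was seen there too. Replicate 2 was the higher in 46, 48, 36 and 49 of 61 in vehicle, DEP, DPP and Mix. Of all tested genes, 53.6%, 49.4%, 49.1% and 49.3% were higher in replicate 2. The map of the tested clustered genes by library shows this column. Values without it are given for part of the results only, so a DProP value printed alone may also rest on that library. Calls of named genes were also recomputed under 19 alternatives: the settings listed with the processing, less the near-identical pairs, which change counts of genes alone.

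**Figure D1:**
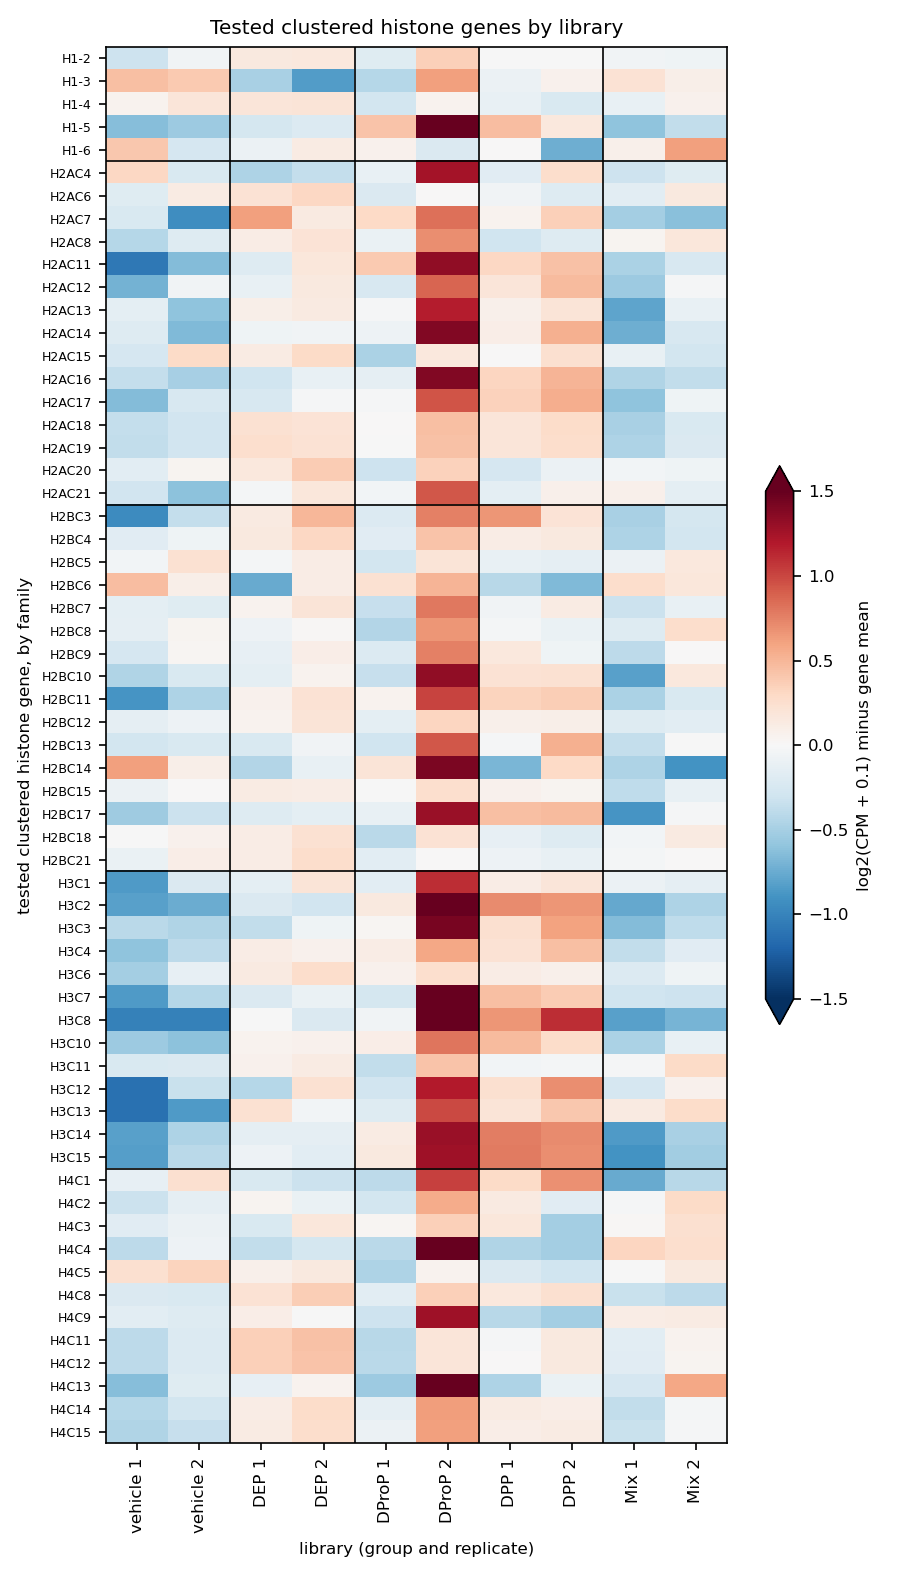
Heat map of the 61 tested clustered histone genes (rows, by family) in the 10 libraries (columns): colour is log2(CPM + 0.1) minus the gene's mean over libraries, and colours saturate beyond the scale ends. DProP replicate 2 is red in most rows, and it is the highest library for 48 of 61 clustered genes.

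Of the 63 tested histone genes, 10 were higher and 3 lower in DEP than in vehicle (edgeR's quasi-likelihood test, adjusted p under 0.05). Over all tested genes 10.1% were higher and 13.5% lower. In DProP 23 were higher and 3 lower, beside 14.7% and 17.5% of all genes. In DPP 15 were higher and 5 lower, beside 16.7% and 19.5%, and in Mix 1 was higher and 1 lower, beside 9.71% and 10.7%. The median log2 fold change of the 63 genes was 0.33, 0.65, 0.40 and 0.08 in DEP, DProP, DPP and Mix, and that of all tested genes lay between 0.01 and 0.02. The 4 comparisons share the 2 vehicle libraries.

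With DProP replicate 2 left out, the median of the histone genes in DProP was 0.04, and that of all tested genes was 0.01. Fewer histone genes were then called in DProP, and more in DEP and DPP. With vehicle replicate 1 left out, fewer were called in DEP, DProP and DPP. The shares of all genes in these fits are not set beside them, so these changes are not read as a trait of the histone genes. With library size alone as the scale, the median of all tested genes lay between 0.16 and 0.19, and in DPP it gave 24 higher and 2 lower in place of 15 and 5, so fold changes are relative to the TMM scale.

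**Figure D2:**
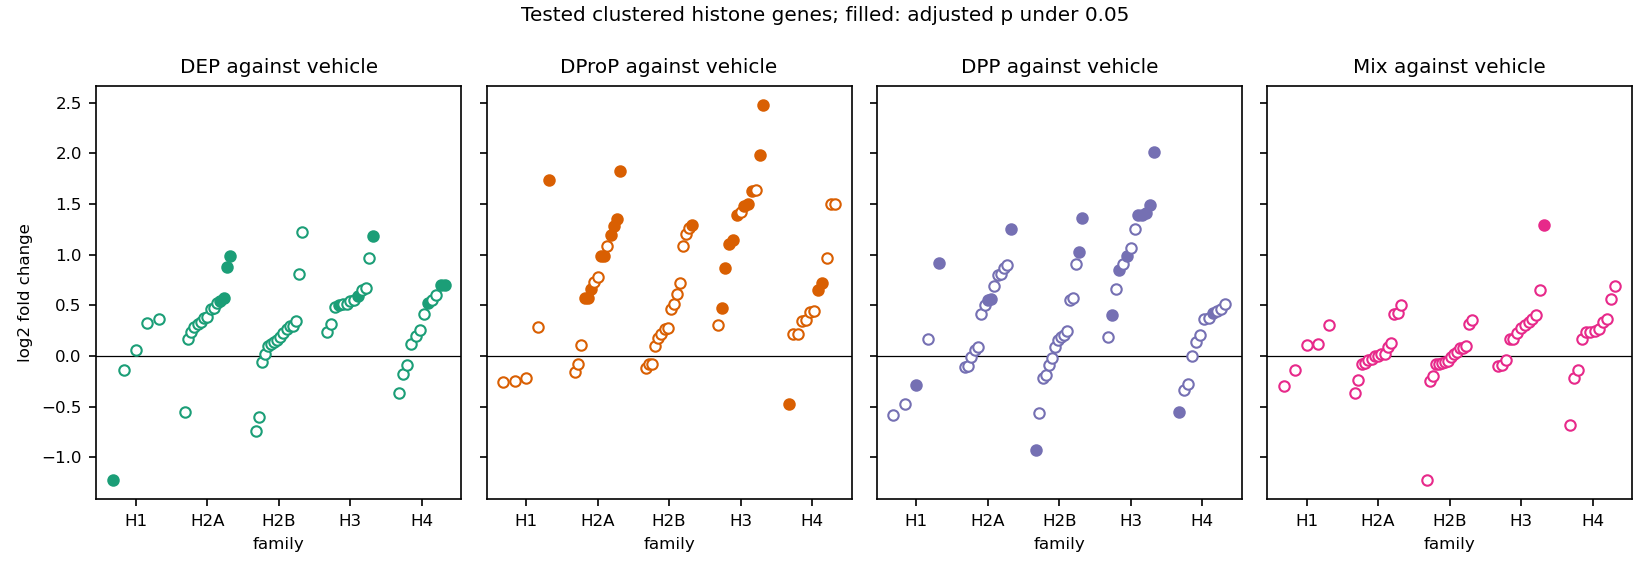
Log2 fold change against vehicle of the 61 tested clustered histone genes, by family, in 4 panels for the treatments: each point is a gene, filled where the adjusted p of edgeR's quasi-likelihood test is under 0.05. All 13 H3 genes lie above 0 in DEP, DProP and DPP.

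H3 genes, which encode the canonical H3.1 and H3.2 proteins, had the highest family medians in all 4 comparisons. All 13 were tested, and all 13 had a positive log2 fold change in DEP, DProP and DPP, of which 3, 10 and 8 passed the test. Their medians were 0.54, 1.42 and 1.07. In Mix 10 of 13 were positive with a median of 0.28, and H3C13 alone passed. Both treated libraries lay above both vehicle libraries for 12, 12, 13 and 8 of the 13 genes in DEP, DProP, DPP and Mix, where 32.3%, 34.4%, 34.8% and 32% of all tested genes did. Leaving out DProP replicate 2 left fewer H3 calls in DProP and more in DEP and DPP. The DProP median was then 0.61, with 12 of 13 positive.

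H3C2 (gene 8358, chr6:26031589-26032099, minus strand) had 3.26 and 3.44 CPM in vehicle, 5.00 and 4.74 in DEP, 6.45 and 19.97 in DProP, 9.58 and 9.24 in DPP, and 3.37 and 4.17 in Mix (CPM are the usual depth-scaled counts, with TMM factors). The DEP, DProP and DPP libraries all lay above the vehicle ones, and Mix overlapped vehicle. H3C2 rose by a log2 fold change of 1.99 ± 0.47 (SE) in DProP (adjusted p = 0.0189, edgeR) and 1.49 ± 0.47 in DPP (adjusted p = 0.0465, edgeR). The value in DProP was 0.94 without replicate 2, where the adjusted p was 0.00344 (edgeR). Of the 19 alternatives, 11 ended the DPP call and 4 the DProP call of H3C2, limma-voom and leaving out either vehicle library among both.

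H3C8 (gene 8355, chr6:26270918-26271413, minus strand), which carries the second stem-loop form above, had 0.986 and 0.991 CPM in vehicle. It had 2.09 and 1.78 in DEP, 2.01 and 8.96 in DProP, 3.36 and 4.63 in DPP, and 1.15 and 1.26 in Mix. All 8 treated libraries lay above vehicle, with Mix nearest to it and DProP replicate 2 farthest. The log2 fold change was 2.48 ± 0.63 in DProP (adjusted p = 0.0228, edgeR) and 2.01 ± 0.63 in DPP (adjusted p = 0.0433, edgeR), and 0.97 in DEP, which did not pass. In DProP replicate 1 alone against vehicle it was 1.02 (adjusted p = 0.0212, edgeR). For H3C8 12 of the 19 alternatives ended the DPP call and 5 the DProP call, limma-voom, no filter on low counts and leaving out either vehicle library among both.

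H3C13 (gene 653604, chr1:149813225-149813693, minus strand) was the one clustered gene higher in Mix. It had 0.673 and 0.828 CPM in vehicle, 1.87 and 1.53 in DEP, 1.37 and 3.22 in DProP, 1.81 and 2.12 in DPP, and 1.75 and 1.93 in Mix. No treated library overlapped vehicle. The log2 fold changes were 1.18, 1.62, 1.39 and 1.29 in DEP, DProP, DPP and Mix, each with an SE of 0.35, and adjusted p were 0.0309, 0.00465, 0.00925 and 0.0234 (edgeR). H3C13 shares 78.2% of its 50-base words with another gene, and leaving out either vehicle library ended its calls in DEP and Mix. The value in DProP was 0.86 without replicate 2 and did not pass (adjusted p = 0.0523, edgeR).

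The near-identical H3C14 and H3C15, on chromosome 1, are read as 1 value. H3C14 had 1.71 and 2.20 CPM in vehicle, 2.78 and 2.79 in DEP, 3.34 and 7.65 in DProP, 5.29 and 5.06 in DPP, and 1.65 and 2.15 in Mix. DPP was high in both libraries, and Mix overlapped vehicle. Its log2 fold change was 1.502 ± 0.32 in DProP (adjusted p = 0.00573, edgeR) and 1.41 ± 0.32 in DPP (adjusted p = 0.00675, edgeR). Without DProP replicate 2 the DProP value of H3C14 was 0.78 (adjusted p = 0.0355, edgeR) and that of H3C15 was 0.79 (adjusted p = 0.0429, edgeR). With all libraries H3C15 gave 1.48 and 1.39, and the ratio of its sister H3C14 to it lay between 1.04 and 1.12 in all libraries. H3C4 rose in all 3 single compounds, by 0.59, 0.87 and 0.85, from 7.28 and 8.46 CPM in vehicle to between 11.6 and 16.7 CPM. Its RefSeq model overlaps H2AC7, so reads in the overlap cannot be assigned with certainty. H3C6, named after its values were seen, also rose in the same 3 comparisons, by 0.51, 0.47 and 0.40, but its DProP call ended without DProP replicate 2 (0.37, adjusted p = 0.109, edgeR).

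**Figure D3:**
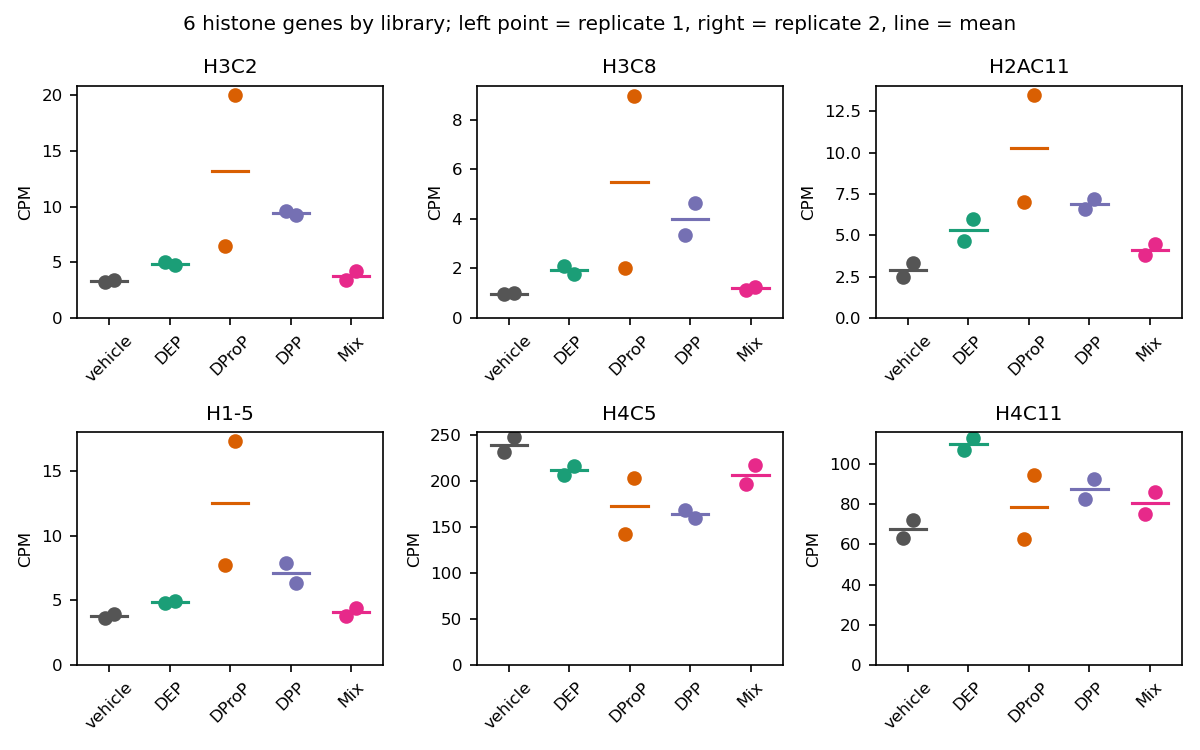
CPM (vertical axis, from 0) of 6 histone genes in the 5 groups: each point is a library, with replicate 1 at the left, and each line is the mean of 2. H3C2, H3C8, H2AC11 and H1-5 reach their highest point in DProP replicate 2, H4C5 is lower in both DPP libraries than in vehicle, and H4C11 is highest in the DEP libraries.

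H2A genes encode a core histone that pairs with H2B. Of 15 tested, 4, 9 and 3 were higher in DEP, DProP and DPP and none in Mix, and none was lower in any, where 10.1%, 14.7%, 16.7% and 9.71% of all tested genes were higher. In Mix 0 had an unadjusted p under 0.05, and DESeq2 and limma-voom called 0. When DProP replicate 2 was left out, fewer H2A genes were higher in DProP and more in DEP and DPP. H2AC11 (gene 8969, chr6:27133043-27133535, plus strand) had 2.47 and 3.33 CPM in vehicle, 4.63 and 5.98 in DEP, 7.02 and 13.5 in DProP, 6.58 and 7.21 in DPP, and 3.78 and 4.46 in Mix. Every treated library lay above vehicle. The log2 fold change was 0.87 ± 0.28 in DEP (adjusted p = 0.0491, edgeR), 1.83 ± 0.28 in DProP (adjusted p = 0.00104, edgeR) and 1.25 ± 0.28 in DPP (adjusted p = 0.00666, edgeR). In DProP it kept its call in each of the 19 alternatives, with 1.28 without DProP replicate 2, while 11 of the 19 ended its call in DEP.

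H2AC18 and H2AC19, near-identical genes on chromosome 1 with the first stem-loop form, rose by 0.54 to 0.57 in DEP, DProP and DPP. H2AC18 had 13.5 and 14.2 CPM in vehicle, 20.3 and 20.1 in DEP, 17.4 and 23.7 in DProP, 19.7 and 20.97 in DPP, and 12.4 and 14.8 in Mix. The 6 libraries of the single compounds all lay above the other 4. H2AC18 and H2AC19 without DProP replicate 2 gave 0.33 and 0.32 in DProP and no longer passed (adjusted p = 0.0923 and 0.0913, edgeR). H2AC7, with 1.27 and 0.738 CPM in vehicle and 2.34 and 1.66 in DEP, rose by 0.99 in DEP and 1.20 in DProP, with the overlap named above. Its DProP call ended without DProP replicate 2 (0.89, adjusted p = 0.0931, edgeR), and its DEP call ended without vehicle replicate 2 or either DEP library.

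H2B genes complete the core pair with H2A. Of 16 tested, none passed in DEP, where 3 had an unadjusted p under 0.05, DESeq2 called 1 and limma-voom 0. In DProP 1 was higher, in DPP 2 were higher and 1 lower, and none passed in Mix, where 1 had an unadjusted p under 0.05 and the other tools called 0. With all libraries, each of these higher counts is a smaller share of 16 than the share of all tested genes given for H2A. When DProP replicate 2 was left out, more H2B genes were higher in DEP and DPP. H2BC11, chosen after its values were seen because it faces H2AC11 head to head, had 4.85 and 6.52 CPM in vehicle, 9.41 and 10.47 in DEP, 9.33 and 18.4 in DProP, 11.4 and 11.7 in DPP, and 6.47 and 7.68 in Mix. Only Mix overlapped vehicle. It rose by 1.29 in DProP, or 0.72 without replicate 2 (adjusted p = 0.0187, edgeR), and by 1.02 in DPP, and its 0.81 in DEP did not pass.

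The starts of H2AC11 and H2BC11 lie 247 bases apart, and their promoters are printed above. In all, 9 such tested pairs of an H2A and an H2B gene have facing starts 193 to 247 bases apart. In DProP and in DPP, H2AC11 and H2BC11 were the one pair in which both genes passed. In 8, 6, 6 and 6 of the 9 pairs the members had fold changes of the same sign in DEP, DProP, DPP and Mix. No such share for unpaired H2A and H2B genes is set beside these counts, so they are not read as a trait of facing genes.

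A set of 6 clustered genes (H1-2, H2AC6, H2BC4, H2BC5, H2BC12 and H2BC21) is known to make polyadenylated messages as well, outside S phase. None of these 6 passed in any comparison with vehicle, and their medians were 0.26, 0.07, 0.04 and -0.03 in DEP, DProP, DPP and Mix. At an unadjusted p under 0.05, 3 of 6 stood out in DEP and none in the other comparisons, and DESeq2 and limma-voom called 0 in each. H2BC21, for example, had 88.5 and 101.5 CPM in vehicle and 85.2 to 114 CPM in all other libraries, with log2 fold changes of 0.19, -0.07, -0.09 and -0.01. H2BC12 had 66.4 and 69.3 CPM in vehicle and 63.7 to 91.2 elsewhere, and H2BC4 had 60.2 and 64.9 in vehicle and 49.1 to 91.4 elsewhere. H2BC5, H2AC6 and H1-2 likewise had fold changes between -0.22 and 0.33, as did H2BC18, between -0.19 and 0.14. Without DProP replicate 2 the DProP median of the 6 genes was -0.11. The DProP values of H2BC5 and H2BC18 were then -0.38 and -0.43. Those of H1-2, H2AC6, H2BC4, H2BC12 and H2BC21 were -0.01, -0.19, -0.05, -0.04 and -0.16.

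The tested H4 genes encode one identical protein from many copies. Over all tested genes 10.1% were higher and 13.5% lower in DEP, and 14.7% and 17.5% in DProP. In DPP the shares were 16.7% and 19.5%, and in Mix 9.71% and 10.7%. The H4 counts in DProP and DPP, in both directions, are near or under those shares. Of 12 tested, 3 were higher in DEP, 2 higher and 1 lower in DProP, 1 higher and 1 lower in DPP, and none in Mix, where 0 had an unadjusted p under 0.05 and DESeq2 and limma-voom called 0. H4C5 (gene 8367, chr6:26204610-26205021, plus strand), which carries the third stem-loop form, had 232 and 248 CPM in vehicle, 207 and 217 in DEP, 142 and 204 in DProP, 169 and 159 in DPP, and 197 and 217 in Mix. All 8 treated libraries lay below both vehicle libraries. It fell by 0.47 ± 0.14 on the log2 scale in DProP (adjusted p = 0.03, edgeR) and by 0.55 ± 0.14 in DPP (adjusted p = 0.0139, edgeR). With library size alone these became -0.29 (adjusted p = 0.126, edgeR) and -0.39 (adjusted p = 0.0501, edgeR). The DProP value without replicate 2 was -0.76. Of the 19 alternatives, 8 ended the DProP call and 4 the DPP call, leaving out either vehicle library among both.

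The H4C11 and H4C12 pair had its highest levels in DEP. H4C11 (gene 8363, chr6:27824092-27824480, plus strand) had 63.5 and 72.3 CPM in vehicle, 107.4 and 113.5 in DEP, 62.8 and 94.8 in DProP, 82.7 and 92.7 in DPP, and 75.0 and 86.5 in Mix. Only DProP overlapped vehicle, and the DProP value of H4C11 was 0.22 with all libraries and -0.11 without DProP replicate 2. It rose by 0.70 ± 0.18 in DEP (adjusted p = 0.0257, edgeR), and H4C12, whose counts were almost equal, by 0.70 ± 0.17. Both calls ended with no filter on low counts and on leaving out either vehicle or either DEP library. H4C8 rose by 0.52 in DEP and 0.43 in DPP, from 23.1 and 23.0 CPM in vehicle to 31.3 and 34.8 in DEP and 30.1 and 31.97 in DPP.

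Of 5 tested clustered H1 genes, H1-5 was called higher and H1-4 and H1-3 lower, only in the comparisons with vehicle named here. Such single calls are to be read beside the shares of all tested genes given for H4. H1-5 (gene 3009, chr6:27866792-27867588, minus strand), whose promoter above holds the H1 box, had 3.63 and 3.89 CPM in vehicle, 4.76 and 4.92 in DEP, 7.75 and 17.3 in DProP, 7.88 and 6.36 in DPP, and 3.73 and 4.38 in Mix. The single compounds lay above vehicle and Mix overlapped it. H1-5 rose by 1.74 ± 0.32 in DProP (adjusted p = 0.00351, edgeR), or 1.04 without replicate 2, and by 0.92 ± 0.32 in DPP (adjusted p = 0.0489, edgeR). In DPP, DESeq2 called 1 clustered H1 gene higher and limma-voom called 0, so limma-voom did not make the DPP call. H1-4 fell by 0.29 in DPP, a call that ended in 9 of the 19 alternatives, such as library size alone (-0.13, adjusted p = 0.333, edgeR). Without DProP replicate 2 its DProP value was -0.39, past the threshold. H1-3, named after its values were seen, fell by 1.23 in DEP from 1.08 and 1.03 CPM to 0.516 and 0.382. These are low levels, and DESeq2 did not make this call.

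**Figure D4:**
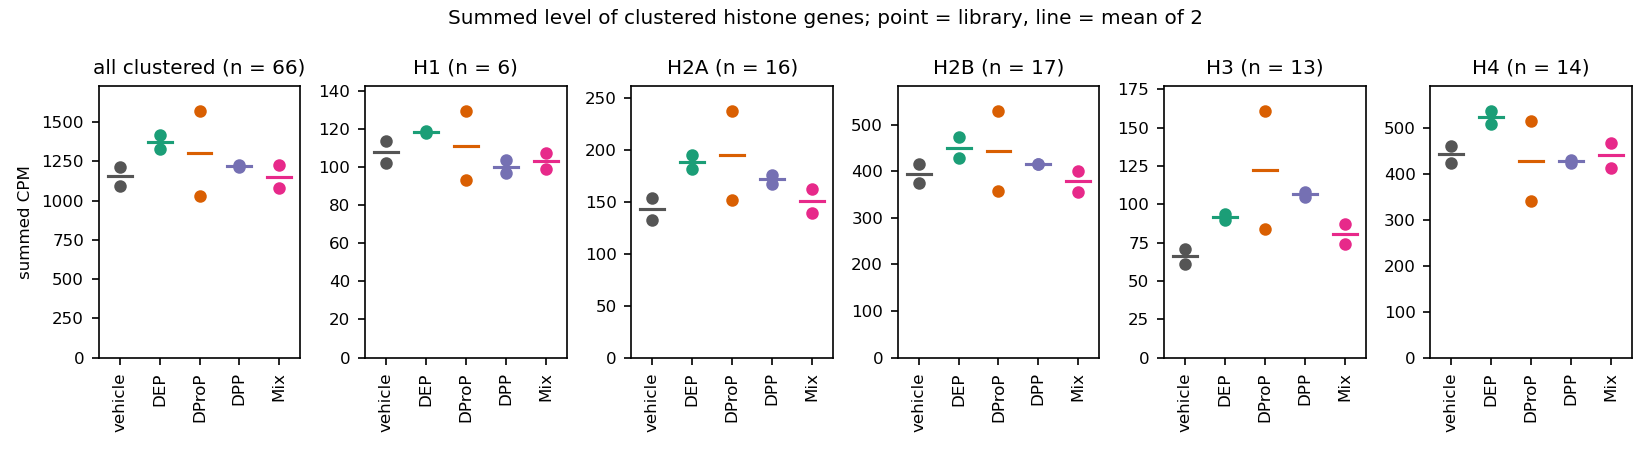
Summed CPM (vertical axes, from 0) of the clustered histone genes, for all 66 and for each family, in the 5 groups: points are libraries and lines the mean of 2. The H3 sum is above vehicle in all 8 treated libraries, and DProP replicate 2 is the highest point in the sum of all.

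Sums over a family do not depend on how reads were shared among its own copies, but they do depend on reads shared with other genes. H2AC17 shares 86.3% of its 50-base words with other genes, mainly H3C12, and H2BC12 shares 74.1%, mainly with LOC102724334. Whether reads that map to several places were kept was not stated. The summed level of all 66 clustered genes was 1094 and 1215 CPM in vehicle, 1326 and 1417 in DEP, 1027 and 1572 in DProP, 1214 and 1226 in DPP, and 1081 and 1225 in Mix. Both libraries lay above both vehicle libraries in DEP only, by less than the gap between the vehicle libraries for DEP replicate 1. The H3 sum was 61.4 and 70.6 CPM in vehicle, 89.8 and 93.8 in DEP, 83.6 and 161 in DProP, 105 and 108 in DPP, and 74.0 and 86.8 in Mix, so no treated library overlapped vehicle. The H2A sum was 132 and 154 CPM in vehicle, 181 and 195 in DEP, 152 and 237 in DProP, 167 and 176 in DPP, and 139 and 163 in Mix. The DEP and DPP libraries lay above vehicle there and the others overlapped it. These sums have no test, and 2 libraries against 2 cannot go below an exact p of 0.333. In bulk RNA, fewer or more cells in S phase cannot be told apart from less or more histone RNA per cell.

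The genes with lower counts had higher medians in DProP and DPP, in a division made after the values were seen. For the 35 tested clustered genes under 10 CPM on average, the median was 0.38 in DEP, 1.20 in DProP, 0.80 in DPP and 0.11 in Mix. For the 26 genes of at least 10 CPM it was 0.32, 0.29, 0.19 and 0.01. Without DProP replicate 2 the DProP medians were 0.35 and -0.09, so the 1.20 rests on that library, and no other of these medians moved by over 0.01.

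H1-10 (gene 8971, chr3:129314771-129316286, minus strand) is a solitary linker histone gene and is expressed in most tissues. It fell in all 4 treatments, by 0.46, 0.58, 0.53 and 0.38, from 63.1 and 74.5 CPM in vehicle to between 44.4 and 55.1 CPM. Its call in Mix ended with library size alone, with the correction for GC content and length, and without vehicle replicate 2 or Mix replicate 1.

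The 3 single compounds and Mix were then compared with one another at their labelled 100 µM. No histone gene passed in DProP against DEP, DPP against DEP or DPP against DProP, where 0.39%, 1.36% and 0.144% of all tested genes were higher and 0.134%, 1.58% and 0.118% lower. At an unadjusted p under 0.05 the counts were 18, 7 and 6 of 63. DESeq2 called 4, 3 and 1, and limma-voom called none. The median 95% interval of a histone gene reached 0.62 to each side in each of the 3 comparisons. These intervals are not adjusted for the number of genes, so for the typical gene a difference had to be larger than that to pass. For H3C2, DPP minus DEP was 0.95 (95% interval -0.13 to 2.04) and DProP minus DEP was 1.44 (0.36 to 2.53), and neither passed after adjustment. For H1-5, DProP minus DEP was 1.37 (0.67 to 2.08) and DPP minus DEP was 0.56 (-0.15 to 1.26), and neither passed. For H4C11, DPP minus DEP was -0.33 (-0.74 to 0.08). Both DProP values rest on replicate 2: without it DProP minus DEP was 0.40 for H3C2 (adjusted p = 0.521, edgeR) and 0.68 for H1-5 (adjusted p = 0.253, edgeR).

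Leaving out DProP replicate 2 also changed the values between single compounds among the 61 tested clustered genes. In DProP against DEP the median was then -0.21 in place of 0.36. In DPP against DProP it was 0.27 in place of -0.22. Calls in DPP against DEP changed in that fit as well. The share of all genes there is not set beside them, so they are not read as a trait of the histone genes. The order of DProP among the single compounds thus depends on that library. DEP and DProP differ in the length of their alkyl chains, if DProP is read as above.

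More histone genes passed between Mix and the single compounds than among the single compounds, as did more of all tested genes. Against DEP 1 histone gene was higher and 3 lower, beside 2.85% and 1.02% of all genes. Against DProP 1 was higher and 11 lower, beside 4.36% and 2.53%, and against DPP 1 was higher and 6 lower, beside 10.4% and 6.82%. Against DPP the higher count is thus under the share of all genes, and the lower count is near it. The lower genes against DEP were H2AC18, H2AC19 and H4C8, by 0.57, 0.57 and 0.66, and leaving out either DEP or either Mix library ended each of these calls. Against DPP the genes named by size were H3C14, H3C15, H3C4 and H2AC18, with -1.45, -1.49, -0.62 and -0.58. Against DProP they were H1-5, H3C15, H3C14 and H3C3, with -1.63, -1.57, -1.54 and -1.48, and without DProP replicate 2 with -0.93, -0.89, -0.81 and -0.57, of which only H1-5 passed. Leaving out DProP replicate 2 left fewer histone genes called in Mix against DProP and more against DEP and DPP. Without Mix replicate 1 fewer histone genes passed against the single compounds. The shares of all genes in these fits are not set beside them, so these changes are not read as a trait of the histone genes.

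Other genes of the cell cycle and of histone biology are given beside these results. Their counts are to be read against all tested genes, of which 10.1% were higher and 13.5% lower in DEP, 14.7% and 17.5% in DProP, 16.7% and 19.5% in DPP, and 9.71% and 10.7% in Mix. Of 41 S phase genes, 4 were higher and 1 lower in DEP, 20 higher in DProP, 11 higher in DPP, and 2 higher and 1 lower in Mix. The medians were 0.08, 0.49, 0.34 and 0.01, and the DProP median was 0.15 without DProP replicate 2. TYMS, which makes thymidylate for DNA, had 12.9 and 13.8 CPM in vehicle, 16.5 and 17.6 in DEP, 19.9 and 29.03 in DProP, 20.9 and 19.2 in DPP, and 11.2 and 13.96 in Mix. It rose by 0.88 in DProP, or 0.58 without replicate 2, and by 0.59 in DPP. PCNA, the sliding clamp of DNA polymerase, rose by 0.30, 0.27 and 0.40 in DEP, DProP and DPP, but 13 of the 19 alternatives ended its DProP call (0.12 without DProP replicate 2) and 6 its DEP call. TK1, thymidine kinase, rose by 1.63 and 1.23 in DProP and DPP. CDC6, GINS4 and RFC3, which load or run the replication machinery, rose in DProP by 0.72, 0.78 and 0.61 and in DPP by 0.64, 0.71 and 0.48. The S phase count in DProP was 6 without DProP replicate 2, when CDC6 no longer passed (0.44) and 8.11% of all genes were higher.

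Of 28 genes of G2 and mitosis, 13 were higher in DProP and none passed in DEP, DPP or Mix, where 0, 2 and 1 had an unadjusted p under 0.05. DESeq2 called 0, 4 and 0 in these, and limma-voom 0. The count in DProP was 2 without DProP replicate 2. Their summed level was 257 CPM in DProP replicate 1, 585 in DProP replicate 2 and 199 to 314 in the other libraries. MKI67, a marker of cycling cells, had 37.2 and 34.5 CPM in vehicle, 42.7 and 119 in DProP, and 25.8 to 58.0 elsewhere, and did not pass in any comparison. CDK1, the mitotic kinase, had 7.88 and 17.7 CPM in DProP against 6.89 and 6.14 in vehicle, and its call in DProP ended in 14 of the 19 alternatives. Its log2 fold change in DProP was 0.98, or 0.27 without replicate 2. The part of cell cycle composition in the histone values was not tested.

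**Figure D5:**
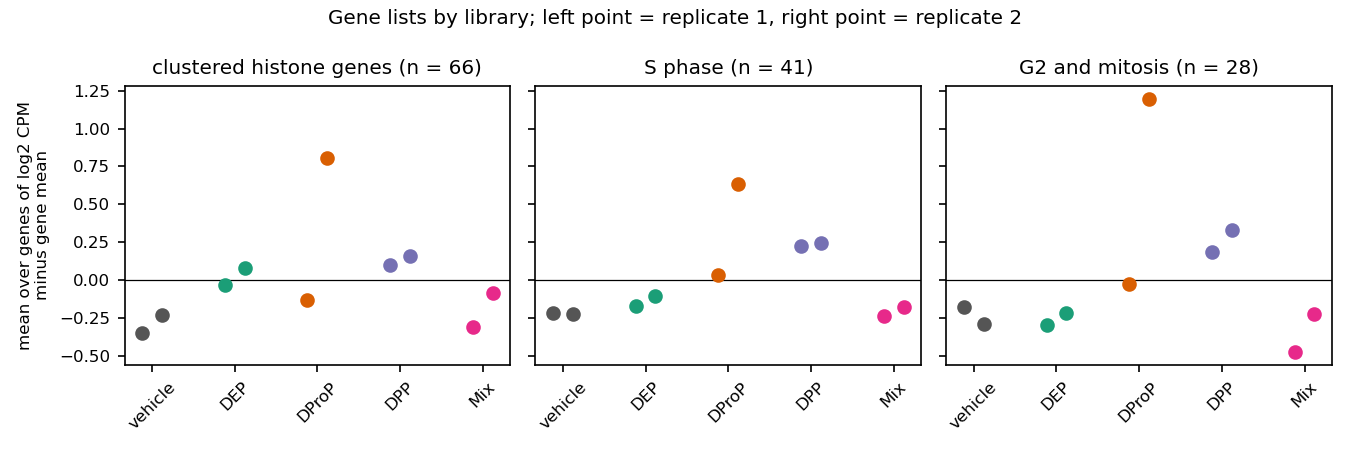
Mean over genes of log2 CPM minus the gene's own mean (vertical axis): each point is a library, with replicate 1 at the left. The panels hold the 61 tested of 66 clustered histone genes, 41 S phase genes and 28 genes of G2 and mitosis. The 66 in the panel title counts untested genes too. DProP replicate 2 is the highest point in each panel, and the DPP libraries lie above both vehicle libraries in each.

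Genes for making histone messages passed the test at shares near those of all tested genes in the single compounds. Of 26 genes for histone pre-mRNA processing and transcription, 5 were lower in DEP, 4 higher and 4 lower in DProP, 3 higher and 5 lower in DPP, and 5 higher and 4 lower in Mix, with medians between -0.08 and 0.00. Without DProP replicate 2 the DProP counts were 0 higher and 3 lower. SLBP had 31.4 and 30.9 CPM in vehicle, 30.0 and 29.2 in DEP, 34.7 and 37.4 in DProP, 33.1 and 38.5 in DPP, and 32.7 and 30.6 in Mix, and did not pass. NPAT rose by 0.24 in DPP, and CASP8AP2 by 0.23 in DProP, a call that 6 of the 19 alternatives ended, and by 0.31 in Mix. SRRT, a partner of the cap-binding complex, fell in all 4 treatments by 0.37, 0.42, 0.50 and 0.31, and NCBP2, a cap-binding subunit, by 0.29, 0.38, 0.21 and 0.34. With library size alone the Mix call of SRRT and the DEP and DPP calls of NCBP2 ended. UPF1, which takes part in the decay of histone messages, fell by 0.31, 0.33 and 0.35 in DEP, DProP and DPP, but none of the 3 calls held with the correction for GC content and length, nor those in DEP and DProP with library size alone. WDR33, a polyadenylation factor, rose by 0.27 in DProP, a call that ended without DProP replicate 2, and by 0.26 in DPP.

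Of 12 tested replacement and variant histone genes, 1 was higher and 4 lower in DEP, 4 higher and 3 lower in DProP, 3 higher and 4 lower in DPP, and 2 lower in Mix. Without DProP replicate 2 no such gene was higher in DProP. H3-3B, 1 of 2 genes for the replication-independent H3.3, had 371 and 389 CPM in vehicle, 325 and 308 in DEP, 272 and 278 in DProP, 337 and 302 in DPP, and 305 and 289 in Mix. No treated library reached vehicle, and it fell by 0.26, 0.47, 0.25 and 0.36, with the calls in DEP and DPP lost with library size alone. H3-3A, the other, did not pass, with values from -0.20 to -0.08. H3-5, an H3.3-like gene, fell from 3.79 and 4.52 CPM to between 1.12 and 1.74, by 1.37, 1.87, 1.49 and 1.77. H2AX, the variant that is phosphorylated at DNA breaks, rose by 0.37 in DProP and 0.43 in DPP, and H2AZ1, found at promoters, by 0.66 and 0.61. Both DProP calls ended without DProP replicate 2. H2AJ fell by 1.37 in DEP, a call that DESeq2 did not make. MACROH2A2 fell by 0.28, 0.26 and 0.49 in DEP, DProP and DPP, and its DEP and DProP calls each ended in 5 of the 19 alternatives.

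Of 25 histone chaperone genes, 3 were higher and 1 lower in DEP, 4 and 2 in DProP, 5 and 1 in DPP, and 2 and 2 in Mix, which is near or under the shares of all genes. SUPT16H, a subunit of FACT, had 36.9 and 40.6 CPM in vehicle and 47.0 to 54.8 in all treated libraries, and rose by 0.41, 0.40, 0.48 and 0.36. NPM1 also rose in all 4, by 0.44, 0.46, 0.56 and 0.33, and its Mix call ended in 5 of the 19 alternatives. ASF1B, which hands new H3 and H4 to the assembly factors in cycling cells, rose by 1.36 in DProP (0.89 without replicate 2) and by 0.76 in DPP, a call that 9 of the 19 alternatives ended, from 1.503 and 1.67 CPM in vehicle to 2.95 and 5.18 in DProP and 2.40 and 2.998 in DPP. TONSL fell in Mix by 0.54.

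Of 17 genes tied to exit from the cell cycle, 3 were higher and 3 lower in DEP, 5 and 5 in DProP, 5 and 5 in DPP, and 2 and 1 in Mix. CDKN1A, the p21 inhibitor, had 111 and 112 CPM in vehicle, 157 and 146 in DEP, 151 and 149 in DProP, 189 and 195 in DPP, and 119 and 128 in Mix. It rose by 0.45, 0.43 and 0.78 in the single compounds. CDKN2B, the p15 inhibitor, rose by 0.69 in DProP and 1.86 in DPP, from 3.22 and 2.74 CPM in vehicle to 9.70 and 12.02 in DPP. Its 0.48 in DEP passed, but 13 of the 19 alternatives ended that call, DESeq2 and limma-voom among them. CDKN1B and CDKN1C, the p27 and p57 inhibitors, fell, CDKN1B by 0.28, 0.32 and 0.41 in the single compounds (in DEP and DProP the call ended with library size alone) and CDKN1C by 0.58, 0.74, 0.97 and 0.71 in all 4 treatments.

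Cell type markers also moved with treatment. Of 8 progenitor markers 7, 8, 8 and 6 were lower in DEP, DProP, DPP and Mix, and their summed level was 6870 and 6925 CPM in vehicle and 3997 to 4385 in treated libraries. Of 10 neuronal markers 6, 8, 8 and 3 were lower, with 1 higher in DPP and 1 in Mix (summed 2117 and 2186 CPM in vehicle, 1116 to 1779 in treated libraries). Of 7 astrocyte markers 5, 5, 5 and 3 were lower, with 1 higher in Mix (5957 and 6225 CPM in vehicle, 3116 to 3871 in treated libraries). Mesenchymal and smooth muscle markers had 4 of 5 lower in each treatment, and of 7 tested oligodendrocyte markers 2, 1, 1 and 1 were lower, with 1 higher in Mix. The 5 microglia and blood markers were near 0, with a sum of at most 0.4 CPM, and none was tested. The germline markers summed to between 2.1 and 5.3 CPM, and 1 of 3 tested was lower in each single compound. The part of these shifts in the histone values was not tested.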

How the data were processed

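RNA from pools of 6 neurospheres was sequenced in 10 libraries, 2 per group, after probe capture with SureSelect RNA Direct, per the labels' protocols. The authors deposited whole-number read counts for each NCBI gene, unscaled. Per the submitters' processing notes, GRCh38, HISAT2 2.1.0, Trimmomatic 0.38, FastQC, R 4.3.2, StringTie 2.1.3b and edgeR 4.0.9 were used. Their roles, the annotation, the strand setting and the treatment of reads that map to several places were not stated, so reads of near-identical histone genes, of overlapping genes and of opposite strands may be shared or lost.

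The histone genes and the related gene lists were chosen with earlier results of these data known. Counts were fitted with edgeR 4.0.16 in R 4.3.3: genes kept by group (filterByExpr), TMM scaling, and robust quasi-likelihood estimates in which all 10 libraries and 5 group means left 5 residual degrees of freedom. Benjamini-Hochberg adjustment covered all 19465 tested genes within each of 10 comparisons, at a threshold of 0.05. CPM use the TMM factors and are not divided by gene length, so levels are not compared between genes. An SE is the log2 fold change, without sign, over the root of its F statistic.

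Named histone genes are the 12 with the highest mean CPM and, in each comparison, up to 4 increases and 4 decreases past the threshold with at least 1 CPM and no overlap between libraries. One result is not reported here. Of related lists, up to 4 genes per list with the smallest p are named, with a fixed set of regulators and variants. The alternatives were library size alone or relative log expression factors as the scale, no filter on low counts, 1 CPM in 2 libraries, DESeq2 1.42.0, limma-voom (limma 3.58.1), fits of the 2 compared groups, a replicate block and leaving out each library. A correction for GC content and length, counting 1 gene of each near-identical pair, and lists without DProP replicate 2 were added after seeing the data. The method was tested on simulated data. Coordinates and promoters are from RefSeq (GRCh38.p14), and stem-loops and shared 50-base words from GENCODE transcripts.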

Additional observations from a re-analysis of the deposited data

How the results depend on the processing

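Relative log expression factors, the filters on low counts and counting 1 gene of each near-identical pair left each count of called histone genes within 1.5 times its value. Library size alone gave 22 calls in DEP against vehicle and 1 in Mix against vehicle, and summed log2 changes of 0.41 in DEP and 0.24 in DPP in place of 0.25 and 0.08. DESeq2 gave 4, 3 and 1 calls in DProP against DEP, DPP against DEP and DPP against DProP, 22 in Mix against DProP and 15 in Mix against DPP. Limma-voom gave 17 in DProP and 1 in Mix against vehicle. Fits of the 2 groups alone gave 27, 11 and 32 calls in DEP, DProP and DPP against vehicle, 1 in DProP against DEP, 19 in DPP against DEP, and 15, 2 and 23 in Mix against DEP, DProP and DPP. The GC and length correction gave 1 call in Mix against vehicle, 2 in DPP against DEP and 2 in Mix against DEP. Over all tested genes the replicate differences correlated at -0.106 to 0.0867 over 10 pairs of groups, which showed no pairing of libraries by replicate number. For the 61 tested clustered genes the median log2 ratio of replicate 2 to replicate 1 was above 0 in each group. It was 0.15, 0.11, 0.95, 0.03 and 0.22 in vehicle, DEP, DProP, DPP and Mix. The replicate block gave 7 calls in Mix against DEP and 15 in Mix against DPP.

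Leaving out 1 library at a time, with a lone library assumed to vary like the other groups, gave 2 to 25 calls in DEP, 9 to 49 in DProP, 5 to 33 in DPP and 0 to 4 in Mix against vehicle. It gave 0 to 22 in DProP against DEP, 0 to 7 in DPP against DEP, 0 to 9 in DPP against DProP, 0 to 8 in Mix against DEP, 0 to 39 in Mix against DProP and 1 to 24 in Mix against DPP. The extremes came mostly from the DProP, vehicle and DEP libraries: without DProP replicate 1, DProP against vehicle had 49 calls. Of 114 called results for named genes, 45 held in every alternative and 0 reversed. The cause of these changes was not tested. With 2 libraries per group, small changes of the genes with the lowest counts are beyond the reach of these data.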
